A study of Mus musculus with 9 samples.

Results

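The colony-stimulating factors and their receptors were examined as a set of 8 genes, taken by gene name from the 24187 genes listed in the deposited tables. The set holds 3 ligand genes, Csf1 (M-CSF), Csf2 (GM-CSF) and Csf3 (G-CSF), and 5 receptor genes, Csf1r, Csf2ra, Csf2rb, Csf2rb2 and Csf3r, and all 8 were present in both tables. RNA-seq had been done on bone-marrow-derived macrophages (BMDMs) of C57BL/6 mice aged 8 weeks, grown from marrow for 6 days with 10 ng/ml M-CSF, in 3 groups of 3 libraries. In the first group (LPS + NCT503), cells received 500 ng/ml lipopolysaccharide (LPS), an outer membrane component of gram-negative bacteria sensed by TLR4. They also received 50 µM NCT503, an inhibitor of PHGDH, the enzyme that begins serine synthesis from glucose. In the second (LPS), cells received 500 ng/ml LPS alone, and in the third (control) they stayed in complete medium; each treatment lasted 6 h. No group received NCT503 without LPS, so its effect on resting cells was not measured, and the labels name no vehicle for NCT503. The labels do not say whether the libraries of a group came from separate mice or cultures, so a p-value here sets a difference against library-to-library spread alone, which may be technical.

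M-CSF binds CSF1R, a receptor tyrosine kinase, and keeps macrophages and their precursors alive and dividing. GM-CSF binds a private α chain (Csf2ra) and a β chain (Csf2rb) that the IL-3 and IL-5 receptors share, and this complex signals through JAK2 and STAT5; in mice, Csf2rb2 encodes a second β chain that serves IL-3 alone. G-CSF acts through CSF3R, which signals through JAK2 and STAT3 and is best known from neutrophils. Resting macrophages make little GM-CSF or G-CSF, and microbial products switch both genes on, in part through NF-κB and C/EBP factors and through slower decay of mRNAs that carry AU-rich elements.

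The 3′UTRs of the ligand mRNAs were scanned for the pentamer ATTTA, the core of AU-rich elements, because such elements mark inducible, short-lived cytokine mRNAs. The 30-base window richest in ATTTA is given for each ligand, as the DNA strand of the mRNA, 5′ to 3′, from GENCODE M21, with the pentamers in capitals.
Csf2: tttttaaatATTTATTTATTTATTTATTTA
Csf3: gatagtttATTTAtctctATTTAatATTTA
Csf1: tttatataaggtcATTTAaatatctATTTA
The Csf2 3′UTR was 320 bases long and held 9 ATTTA, 5 of them overlapping in the window shown. The Csf3 3′UTR, of 672 bases, held 6 ATTTA, 3 of them in the window. The much longer Csf1 3′UTR, of 2114 bases, held 4, of which 2 lay in its window. Among 21824 genes, 0.257% had a window with 5 or more ATTTA, 2.48% one with 3 or more and 18.1% one with 2 or more. Csf1r had 3 ATTTA in 1672 bases of 3′UTR, and Csf2ra, Csf2rb, Csf2rb2 and Csf3r had 0.

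Promoter windows of 300 bases (250 before and 50 after the start, RefSeq, GRCm38.p6) were matched for 5 of the 8 genes, Csf1, Csf2, Csf2ra, Csf2rb2 and Csf3r. Those of Csf1, the ligand that was higher with NCT503, and of Csf3r, the receptor gene with the largest fold change both with NCT503 and with LPS, are shown on the strand of the gene, 5′ to 3′, with motif matches in capitals. The Csf1 window lies at chr3:107760420-107760719 on the minus strand and the Csf3r window at chr4:126024409-126024708 on the plus strand.
Csf1: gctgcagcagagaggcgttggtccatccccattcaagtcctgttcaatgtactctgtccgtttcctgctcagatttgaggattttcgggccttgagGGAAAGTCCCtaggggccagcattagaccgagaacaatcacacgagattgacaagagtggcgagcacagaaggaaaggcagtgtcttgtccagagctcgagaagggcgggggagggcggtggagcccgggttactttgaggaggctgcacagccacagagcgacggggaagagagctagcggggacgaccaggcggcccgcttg
Csf3r: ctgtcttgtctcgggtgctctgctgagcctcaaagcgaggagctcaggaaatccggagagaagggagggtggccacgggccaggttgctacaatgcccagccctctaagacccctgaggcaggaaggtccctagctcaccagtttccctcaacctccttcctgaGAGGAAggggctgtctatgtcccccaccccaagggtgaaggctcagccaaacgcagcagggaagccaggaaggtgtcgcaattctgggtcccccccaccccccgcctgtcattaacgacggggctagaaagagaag
The capitals in Csf1 mark a match to the NF-κB consensus, GGAAAGTCCC, on the opposite strand at -154 to -145 from the start. The capitals in Csf3r mark the ETS word GAGGAA, the core bound by the macrophage factor PU.1, at -86 to -81. The Csf2ra window held GAGGAA next to each other at -14 to -9 and -8 to -3, and the Csf2rb2 window held it on the opposite strand at -167 to -162 and 29 to 34. The Csf2 window (11:54249850-54250149) held 1 C/EBP match, TTGCCCAA, at -145 to -138 from the RefSeq start. All of this window lies upstream of the Csf2 gene as deposited, which starts at 54249667 on the minus strand. The bases next to the deposited Csf2 start were thus not searched. The Csf2rb2 window likewise lies wholly upstream of the deposited Csf2rb2 gene, and the RefSeq start of Csf3r lies within the deposited Csf3r gene. Both strands were searched for the NF-κB consensus, CK-1 (GAGATTCC, GAGATTTC, GAGGTTCC or GAGGTTTC), AP-1 (TGACTCA or TGAGTCA), C/EBP (TTGCNNAA), ETS (GAGGAA) and the TATA box (TATAAA). In this order they were found in 4.505%, 4.761%, 5.202%, 10.8%, 28.28% and 13.62% of 32851 promoter windows of the same length. An ETS match is thus a common event, and each match describes letters only.

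Levels are given as normalized reads on a scale common to all 9 libraries (reads divided by a size factor per library). The log2 fold changes come from limma on log2(normalized reads + 1), with the Benjamini-Hochberg adjusted p over all genes tested and a threshold of 0.05; those of LPS + NCT503 against LPS and of LPS against control were fitted on the deposited scale of each pair. In LPS + NCT503 against LPS, 1 of the 8 genes was higher (Csf1), 5 were lower (Csf3, Csf2ra, Csf2rb, Csf2rb2 and Csf3r) and Csf2 and Csf1r were not called, beside 32.6% of 19795 genes called in either direction (16.9% higher and 15.7% lower). The median log2 fold change of the 8 genes was -0.98, against 0.08 over all genes. The members were chosen with earlier results of these data known, so the counts and medians of the set are description only. In LPS against control, 7 of the 8 were higher, 0 were lower and Csf1r was not called, beside 41.8% of 19975 genes called (20.5% higher and 21.4% lower), with a median of 1.78, against -0.05 over all genes. In LPS + NCT503 against control, the 3 ligands were higher, Csf2rb2 was lower and the other 4 were not called, beside 40.4% of 19930 genes called (20.7% higher and 19.7% lower), with a median of 0.29, against 0.05. The LPS libraries serve in both of the first 2 comparisons, and the control libraries in both of the last 2, so these are not independent of each other.

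**Figure D1:**
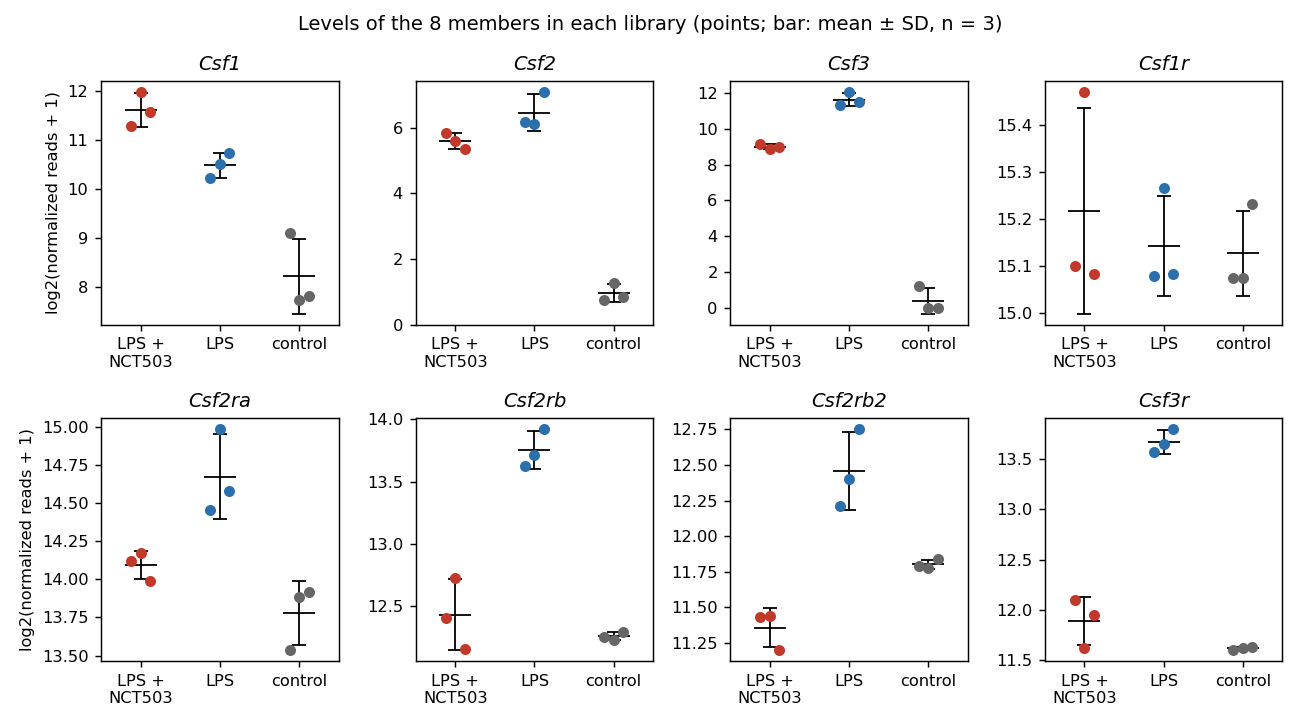
Level of each of the 8 genes in each library, as log2(normalized reads + 1) on the common scale (y axis, a separate range per panel), in LPS + NCT503 (red), LPS (blue) and control (grey) cells; points are libraries, bars the mean ± SD of 3. Csf1 is highest in LPS + NCT503, the other genes except Csf1r have their highest mean in LPS, and the Csf1r points of the 3 groups lie within the same narrow range.

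The direction of some changes depends on how libraries are scaled. LPS libraries had joint size factors of 0.733 to 0.868, against 1.25 to 1.46 in control libraries, at totals of 20295862 to 23599685 reads in all 9. Scaling by library totals alone (CPM) moved the all-gene median of LPS against control to -0.69 and the calls to 2092 higher and 8536 lower, from 4089 higher and 4266 lower. It moved LPS + NCT503 against LPS to a median of 0.31 with 4405 higher and 2137 lower, from 3351 and 3098, and LPS + NCT503 against control to a median of -0.37 with 2452 higher and 6568 lower, from 4134 and 3927. Where a CPM value changes a call or a direction of a member, it is given beside it.

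Csf1 encodes M-CSF, the growth factor that had also been added to the culture (3:107741048-107760469, minus strand, mm10 as deposited). It had 2508, 4039 and 3043 normalized reads in LPS + NCT503 libraries, 1190, 1450 and 1697 in LPS libraries and 544, 211 and 224 in control libraries. The 3 groups did not overlap, and the highest level stood in the cells given both agents. Csf1 was 2.19-fold higher in LPS + NCT503 than in LPS (log2 1.13 ± 0.21 SE, limma adjusted p = 0.00184) and 4.85-fold higher in LPS than in control (2.28 ± 0.31, adjusted p = 0.000111). The second call was lost with the replicate number fitted as a block (adjusted p = 0.0614). Against control, LPS + NCT503 cells were 10.6-fold higher (3.40 ± 0.35, adjusted p = 9.43e-05). Control library 1 stood above the other 2 control libraries for Csf1, and its summed level of 10 fibroblast and stromal markers was 26746 normalized reads, against 5802 and 9288 in control libraries 2 and 3. Without control library 1, Csf1 rose by 2.71 on the log2 scale in LPS against control (adjusted p = 3.16e-06) and by 3.84 in LPS + NCT503 against control (adjusted p = 2.86e-06). Stromal cells make M-CSF, and the part of these markers in the Csf1 values was not tested. For libraries 1, 2 and 3, the stromal sum was 17207, 43270 and 23268 in LPS + NCT503. It was 16996, 24150 and 36282 in LPS and 26746, 5802 and 9288 in control. Within each of the 3 groups, Csf1 ranked the libraries in the same order as this sum. Col1a1 and Col1a2 made up most of the sum, so this order does not show that the 10 markers agreed. Their means were 16429 and 7822 in LPS + NCT503, 14547 and 6650 in LPS and 8161 and 3715 in control cells. In LPS + NCT503 against LPS, 1 of the 10 markers was called higher (Postn) and 3 lower (Pdgfra, Pdgfrb and Thy1). Over all genes, 32.6% were called in this comparison and 41.8% in LPS against control. LPS against control had 5 of the 10 higher and 0 lower, or 9 higher and 0 lower without control library 1, and none was at 0 in a group.

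Csf3 encodes G-CSF, the growth factor of neutrophils (11:98701263-98703629, plus strand). It had 563, 459 and 510 normalized reads in LPS + NCT503 libraries and 2556, 4184 and 2877 in LPS libraries, while control libraries held 2, 0 and 0 reads. No library of any group overlapped another group's range. Csf3 was 6.14-fold lower in LPS + NCT503 than in LPS (log2 -2.62 ± 0.21, limma adjusted p = 5.46e-06), in the opposite direction to Csf1. The level left with NCT503, 510 ± 51.9 normalized reads (SD, n = 3), was still far above control (log2 8.58 ± 0.39, adjusted p = 1.02e-07), with 1464 against 2 reads, a ratio of 1057 after scaling (95% exact interval 292 to 8740). In LPS against control, 7481 against 2 reads gave a ratio of 6551 (1813 to 54104), and the fitted change of 11.24 ± 0.36 (adjusted p = 1.49e-09) depends on the pseudocount. The fitted change of 8.58 in LPS + NCT503 against control depends on the pseudocount too. The intervals cover counting error only. In bulk RNA, fewer cells making a transcript and less RNA per cell cannot be told apart.

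Csf2 encodes GM-CSF, which drives myeloid growth and macrophage activation (11:54247271-54249667, minus strand, sharing 96 exon bases with Gm12223 on the opposite strand), and was the ligand with the fewest reads after LPS. It had 56.1, 47.9 and 40.0 normalized reads in LPS + NCT503 libraries and 71.4, 68.2 and 136 in LPS libraries. Control libraries had 0.683, 1.40 and 0.801, resting on 1, 2 and 1 reads. The LPS + NCT503 libraries all lay below the LPS libraries, but LPS library 3 held almost as much as the other LPS libraries together. The difference between LPS + NCT503 and LPS was not called by limma (log2 -0.86 ± 0.31, 95% interval -1.55 to -0.17, adjusted p = 0.0567). On the recovered reads, edgeR's quasi-likelihood test gave -0.89 (adjusted p = 0.0468) and DESeq2 gave -0.93 (adjusted p = 0.0367), and the authors' deposited table lists -0.93 with an adjusted p of 0.0378. Over 14 alternative settings the adjusted p ranged from 0.0265 to 0.236. Relative to control, Csf2 was higher in both LPS groups. With so few control reads the limma changes depend on the pseudocount, and their folds, 25.1 in LPS + NCT503 and 46.3 in LPS, lie below the ratios of reads. There were 138 against 4 reads in LPS + NCT503 (ratio 49.8, 95% exact interval 19.0 to 185; limma log2 4.65 ± 0.40, adjusted p = 8.34e-06), and 216 against 4 reads in LPS (ratio 94.6, 36.4 to 350.2; 5.53 ± 0.42, adjusted p = 1.03e-06).

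Per kb of the deposited gene length, Csf3 stood at 361 ± 36.7 normalized reads in LPS + NCT503, 2269 ± 610 in LPS and 0.322 in control cells (SD, n = 3). Csf1 stood at 605 ± 147 in LPS + NCT503, 274 ± 48.0 in LPS and 61.8 ± 35.7 in control cells. The order of these ligands thus differed between the groups: Csf3 over Csf1, taken within each library, was 0.839, 0.425 and 0.626 in LPS + NCT503, 8.03, 10.8 and 6.34 in LPS, and 0.00939, 0 and 0 in control. Csf1 was the more abundant ligand transcript in every LPS + NCT503 library, and Csf3 in every LPS library. Csf2 was below both after LPS, at 60.0 ± 10.0 per kb in LPS + NCT503 and 115 ± 48.1 in LPS, against 1.20 ± 0.48 in control. Csf3 over Csf2 was 5.68, 5.43 and 7.21 in LPS + NCT503 and 20.3, 34.7 and 11.9 in LPS, so Csf3 was lower relative to Csf2 in every LPS + NCT503 library. A ratio within a library does not change with scaling; with 3 libraries against 3, a two-sided exact permutation test cannot go below p = 0.1, and none is given.

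**Figure D2:**
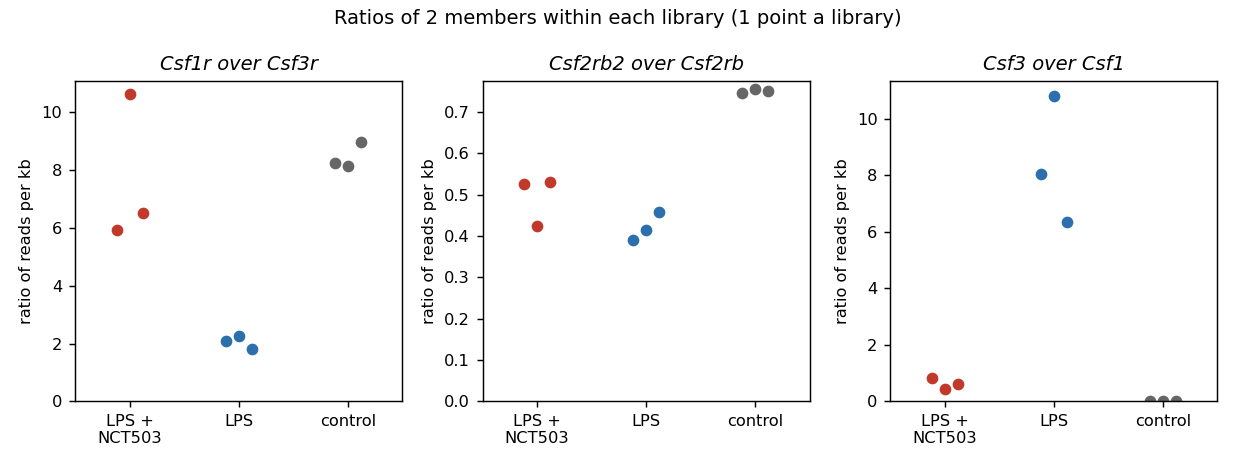
Ratios of normalized reads per kb between pairs of the genes within each library (y axis, linear), for LPS + NCT503, LPS and control cells; each point is 1 library. Csf1r over Csf3r is lowest in LPS, Csf2rb2 over Csf2rb is highest in control, and Csf3 over Csf1 is above 6 in every LPS library and under 1 in all the others.

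Csf1r encodes the M-CSF receptor, which also binds IL-34 and is the defining receptor of macrophages (18:61105572-61132149, plus strand). It had 35109, 45389 and 34735 normalized reads in LPS + NCT503 libraries, 34631, 39421 and 34721 in LPS libraries and 34537, 34516 and 38497 in control libraries. The groups overlapped, and none of the 3 comparisons was called on the deposited or common scale. The log2 difference was 0.08 for LPS + NCT503 against LPS (95% interval -0.30 to 0.45, adjusted p = 0.760), 0.02 for LPS against control (-0.31 to 0.35, adjusted p = 0.926) and 0.09 for LPS + NCT503 against control (adjusted p = 0.677). With CPM scaling it was called lower in LPS than in control (-0.68, adjusted p = 0.000225), at an all-gene median of -0.69, and lower in LPS + NCT503 than in control (-0.36, adjusted p = 0.0468), at a median of -0.37. Its exons overlap those of Hmgxb3 on the opposite strand over 873 bases in GENCODE M21, and the sources used here do not say whether counting used strand, so reads from the overlap are uncertain. Hmgxb3 averaged 901 normalized reads in LPS + NCT503, 886 in LPS and 505 in control cells. These values do not give the reads from the overlap, and its part in the Csf1r values was not tested.

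Csf3r encodes the G-CSF receptor (4:126024550-126044440, plus strand). It had 4388, 3155 and 3940 normalized reads in LPS + NCT503 libraries, 12163, 12884 and 14299 in LPS libraries and 3095, 3138 and 3174 in control libraries. The LPS libraries stood apart from both other groups, and LPS + NCT503 library 2 lay within the control range. Csf3r was 3.45-fold lower in LPS + NCT503 than in LPS (log2 -1.78 ± 0.18, adjusted p = 2.40e-05) and 4.19-fold higher in LPS than in control (2.07 ± 0.14, adjusted p = 4.26e-07). Against control, the LPS + NCT503 level was not called (0.27 ± 0.16, adjusted p = 0.194), while without LPS + NCT503 library 2 it was called higher (0.41, adjusted p = 0.0229). With CPM scaling that difference was -0.18. Per kb, Csf1r over Csf3r was 5.91, 10.6 and 6.51 in LPS + NCT503, 2.10, 2.26 and 1.79 in LPS and 8.24, 8.13 and 8.96 in control libraries, values that no scaling of libraries changes.

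Csf3r is also a gene of neutrophils, and markers of other marrow cells moved in LPS + NCT503 against LPS. Over all genes, 16.9% were called higher and 15.7% lower in that comparison, and 20.5% higher and 21.4% lower in LPS against control. Of 11 neutrophil and precursor markers tested, 0 were higher and 9 lower in LPS + NCT503 against LPS (median log2 -2.98). Their summed level was 488 to 1217 normalized reads in LPS + NCT503, 2972 to 6672 in LPS and 4934 to 8390 in control libraries, and Cxcr2 and Retnlg were at 0 in all LPS + NCT503 libraries. LPS against control had 1 of the 11 higher and 4 lower, while Csf3r was higher. Of 7 markers of mast cells, basophils and eosinophils, which use the shared β chain, 0 were higher and 7 lower in LPS + NCT503 against LPS, and 3 were higher and 0 lower in LPS against control (0 and 1 with CPM scaling). Their sum was 324 to 350 in LPS + NCT503 (Epx at 0), 2746 to 4211 in LPS and 1824 to 2577 in control libraries. Macrophage markers, a list that includes Csf1r, summed to 213185 to 272693 in LPS + NCT503, 431476 to 482280 in LPS and 281550 to 356890 in control libraries. None was at 0, Lyz2 was the highest of them in each group, and their sum was above that of every other marker list. The stromal markers had none at 0 either, so the absence of zeros does not settle which cells were present. Of the 10 macrophage markers tested in each comparison, 1 was higher and 5 lower in LPS + NCT503 against LPS, and 5 were higher and 1 lower in LPS against control (2 and 5 with CPM scaling). The part of these cells in the receptor values was not tested. Markers of T, natural killer and innate lymphoid cells summed to 5877 to 8328 in LPS + NCT503, 693 to 981 in LPS and 1167 to 1348 in control libraries, most of it Il7r in LPS + NCT503, a gene that other cells can also express; of the 10, 1 was higher and 6 lower in LPS + NCT503 against LPS. Endothelial markers summed to 3641 to 4172 in LPS + NCT503, 2434 to 2509 in LPS and 1232 to 2180 in control libraries, with 4 of 6 higher and 0 lower in LPS + NCT503 against LPS. Dendritic cell markers (69.7 to 121 in LPS + NCT503, 55.3 to 86.5 in LPS and 9.62 to 38.9 in control libraries, with Siglech at 0 in LPS + NCT503) and B cell markers (13.5 to 37.9 in LPS + NCT503, 16.1 to 48.5 in LPS and 81.2 to 92.9 in control libraries, with Pax5 at 0 in control) were low in all libraries.

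Csf2ra encodes the α chain that gives the GM-CSF receptor its specificity (19:61224402-61228418, minus strand). It had 17767, 18494 and 16279 normalized reads in LPS + NCT503 libraries, 22474, 32455 and 24419 in LPS libraries and 11866, 15137 and 15472 in control libraries. The 3 groups did not overlap, with LPS highest and control lowest. Csf2ra was 1.49-fold lower in LPS + NCT503 than in LPS (log2 -0.58 ± 0.18, adjusted p = 0.0308) and 1.86-fold higher in LPS than in control (0.90 ± 0.18, adjusted p = 0.00208). The first call was lost without LPS + NCT503 library 1 (adjusted p = 0.0795), LPS + NCT503 library 3 (0.127), LPS library 2 (0.0982) or LPS library 3 (0.0778). It was also lost with CPM scaling (log2 -0.33, adjusted p = 0.0919). The second was lost with CPM scaling (0.20, adjusted p = 0.180). LPS + NCT503 against control was not called (0.31 ± 0.15, 95% interval -0.03 to 0.66, adjusted p = 0.131), and its CPM value was -0.14.

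Csf2rb encodes the β chain shared by the GM-CSF, IL-3 and IL-5 receptors (15:78325990-78351000, plus strand). It had 5420, 6786 and 4581 normalized reads in LPS + NCT503 libraries, 12610, 13468 and 15550 in LPS libraries and 4897, 4798 and 5032 in control libraries. The LPS libraries stood well above both other groups, which overlapped each other. Csf2rb was 2.50-fold lower in LPS + NCT503 than in LPS (log2 -1.32 ± 0.19, adjusted p = 0.000271) and 2.83-fold higher in LPS than in control (1.50 ± 0.14, adjusted p = 7.95e-06). LPS + NCT503 against control was not called (0.17 ± 0.17, adjusted p = 0.450), and its CPM value was -0.28.

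Csf2rb2, next to Csf2rb on the opposite strand (15:78282517-78305603, minus strand), encodes the β chain of the mouse IL-3 receptor. It had 2761, 2778 and 2348 normalized reads in LPS + NCT503 libraries, 4752, 5414 and 6908 in LPS libraries and 3533, 3512 and 3659 in control libraries. The 3 groups did not overlap, and the LPS + NCT503 libraries lay below control. Csf2rb2 was 2.14-fold lower in LPS + NCT503 than in LPS (log2 -1.10 ± 0.18, adjusted p = 0.000884) and 1.58-fold higher in LPS than in control (0.66 ± 0.16, adjusted p = 0.00668). With CPM scaling the second change was -0.042 (adjusted p = 0.815). Of the receptor genes, it was the one called lower in LPS + NCT503 than in control, by 1.36-fold (-0.44 ± 0.14, adjusted p = 0.0277). This call was lost without LPS + NCT503 library 1 (adjusted p = 0.0560) or 3 (0.130), or without control library 2 (0.110) or 3 (0.0844). It was also lost with the replicate number fitted as a block (0.0572).

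The β chain genes are near copies, so their reads may be partly exchanged. Their longest coding sequences, of 2688 and 2634 bases, agreed at 2503 positions, 95.2% of those aligned. In addition, 18.4% of the 50-base words of the Csf2rb transcript and 19.0% of those of Csf2rb2 occur in the other, while the other 6 genes shared 0 such words. The sources used here do not say how reads mapping to both were counted, so both values are uncertain. Per kb, Csf2rb2 over Csf2rb was 0.526, 0.423 and 0.529 in LPS + NCT503, 0.389, 0.415 and 0.459 in LPS and 0.745, 0.756 and 0.751 in control libraries, by the deposited lengths. Control libraries thus held more Csf2rb2 per Csf2rb than any library with LPS, while LPS + NCT503 and LPS overlapped.

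**Figure D3:**
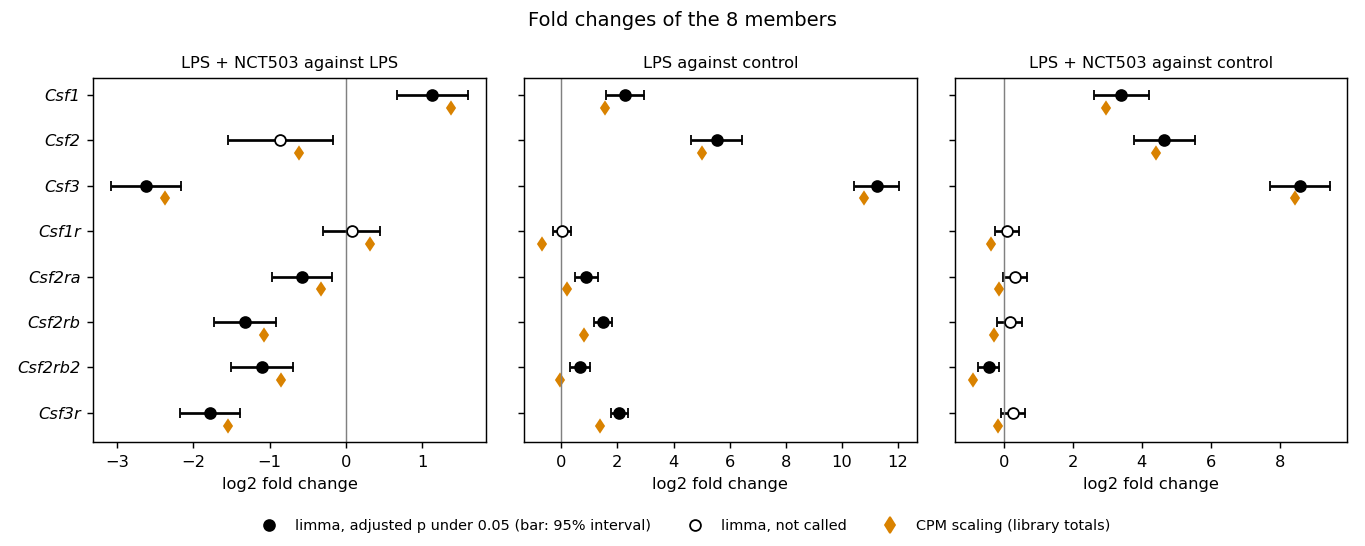
Log2 fold change of each of the 8 genes (x axis) in LPS + NCT503 against LPS, LPS against control and LPS + NCT503 against control; circles are limma values with 95% intervals, filled where the adjusted p was under 0.05, and diamonds are the values with CPM scaling. Csf1 is the gene called higher in the first panel, and CPM scaling moves Csf1r and Csf2rb2 below 0 in the second.

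Among the receptor genes, Csf2ra and Csf1r were the most abundant per kb of deposited length in every group. Csf2ra stood at 9472 ± 611 in LPS + NCT503, 14305 ± 2862 in LPS and 7657 ± 1077 in control cells, and Csf1r at 7863 ± 1238 in LPS + NCT503, 7422 ± 561 in LPS and 7339 ± 469 in control cells (SD, n = 3). Csf2ra was above Csf1r in every LPS + NCT503 library and every LPS library, while the control means differed by less than their spread, and the order turns with the gene length used. With merged exons of GENCODE M21 (2871 bases for Csf2ra and 5774 for Csf1r, against 1849 and 4885 deposited), Csf2ra was below Csf1r in LPS + NCT503 (6100 against 6652) and control (4932 against 6209), but not in LPS (9213 against 6279). Below them stood Csf2rb and Csf3r, at 1175 ± 234 and 1061 ± 173 in LPS + NCT503, 2913 ± 317 and 3634 ± 301 in LPS and 1030 ± 24.6 and 869 ± 10.9 in control cells. Csf2rb2 was the lowest receptor transcript per kb of deposited length, at 570 ± 52.9 in LPS + NCT503, 1234 ± 239 in LPS and 774 ± 17.3 in control cells. Csf2rb and Csf3r did not differ beyond their spread in LPS + NCT503 cells. With the GENCODE length of Csf2rb (7277 bases, against 4764 deposited), its level was 769 in LPS + NCT503, 1907 in LPS and 675 in control cells. That is below Csf3r in every group and, in control cells, below Csf2rb2 (753). Csf1r exceeded Csf1 by 15.1, 12.1 and 12.3 times per kb in LPS + NCT503 libraries, 31.5, 29.4 and 22.1 times in LPS libraries and 68.7, 177 and 186 times in control libraries. Csf1r transcript was in excess over Csf1 transcript in all 9 libraries, least so in the LPS + NCT503 libraries.

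The genes around the receptors were described from lists of known pathway genes. The counts of each list stand beside the shares called over all genes. These were 16.9% higher and 15.7% lower in LPS + NCT503 against LPS, and 20.5% higher and 21.4% lower in LPS against control. Of the other ligands and private chains of these receptors, Il34 and Il3ra passed the filter on low values, while Il5 and Il5ra did not and Il3 is not analysed here. Il34, the second ligand of CSF1R, had 5.10, 2.08 and 5.41 normalized reads in LPS + NCT503 libraries, 13.8, 24.5 and 17.0 in LPS libraries and 2.73, 2.10 and 0.801 in control libraries. It was lower in LPS + NCT503 than in LPS (log2 -1.90 ± 0.46, limma adjusted p = 0.00882) and higher in LPS than in control (2.80 ± 0.48, adjusted p = 0.000618), at levels far below Csf1 and opposite in direction to Csf1 with NCT503. Il3ra, the α chain of the IL-3 receptor, was higher in LPS than in control (0.67 ± 0.22, adjusted p = 0.0292), a call lost with CPM scaling (-0.034, adjusted p = 0.876). It was also lost with TMM scaling (0.56, adjusted p = 0.0584) and when LPS library 2, LPS library 3, control library 1 or control library 2 was left out (adjusted p of 0.109, 0.0844, 0.107 and 0.0550). Its change in LPS + NCT503 against LPS was -0.42 ± 0.21 (adjusted p = 0.150), and without LPS library 1 it was called lower (-0.62, adjusted p = 0.0380).

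Of 20 receptor-proximal signalling genes, 3 were higher and 13 lower in LPS + NCT503 against LPS (median log2 -0.69, against 0.08 over all genes), and 14 were higher and 2 lower in LPS against control (median 1.04, against -0.05). With CPM scaling these became 4 higher and 9 lower, and 9 higher and 5 lower. Pik3cd, a catalytic PI3-kinase subunit, averaged 718 normalized reads in LPS + NCT503 and 11041 in LPS (log2 -3.94 ± 0.18, adjusted p = 2.39e-07). The Src-family kinase Fgr (-2.56 ± 0.16, adjusted p = 8.67e-07) and the phosphatase Ptpn6, a brake on CSF1R and β chain signalling (-2.36 ± 0.17, adjusted p = 2.59e-06), were lower as well. Against control, LPS cells were higher in Stat3, which acts below the G-CSF receptor (2.79 ± 0.15, adjusted p = 5.94e-08) and in Fgr (2.56 ± 0.14, adjusted p = 7.14e-08).

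Of 9 feedback inhibitors and early targets of JAK2-STAT5 and STAT3, 0 were higher and 5 lower in LPS + NCT503 against LPS (median -0.62), and 9 were higher and 0 lower in LPS against control (median 4.15). Socs3, the inhibitor that binds the G-CSF receptor, averaged 9637 normalized reads in LPS + NCT503, 60660 in LPS and 127 in control cells. It was lower in LPS + NCT503 than in LPS (log2 -2.66 ± 0.22, adjusted p = 6.78e-06) and higher in LPS than in control (8.93 ± 0.22, adjusted p = 3.61e-10). Socs1 changed in the same way (-3.44 ± 0.27, adjusted p = 5.16e-06, and 6.53 ± 0.25, adjusted p = 6.31e-09). Cish, a classic STAT5 target, was lower in LPS + NCT503 than in LPS (-2.77 ± 0.25, adjusted p = 1.34e-05), and Bcl3 was higher in LPS than in control (4.15 ± 0.19, adjusted p = 1.77e-08).

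Of 10 growth and survival genes under CSF1R, 3 were higher and 3 lower in LPS + NCT503 against LPS (median 0.02; 4 higher and 2 lower with CPM scaling), and 8 were higher and 2 lower in LPS against control (median 1.18). Plau, which encodes urokinase and responds to M-CSF, was higher with NCT503 (8156 normalized reads in LPS + NCT503 against 1210 in LPS; log2 2.74 ± 0.18, adjusted p = 1.09e-06), as was Myc (1.36 ± 0.22, adjusted p = 0.000651), while the D-type cyclin Ccnd2 was lower (-1.62 ± 0.18, adjusted p = 5.10e-05). Relative to control, LPS cells were higher in Ets2 (4.03 ± 0.15, adjusted p = 3.79e-09), Ccnd2 (4.22 ± 0.28, adjusted p = 3.26e-07) and Spred1, an inhibitor of ERK signalling (2.13 ± 0.14, adjusted p = 3.87e-07). The members of this list did not move in 1 direction with NCT503.

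Of 10 factors known to bind the Csf1r gene, 0 were higher and 5 lower in LPS + NCT503 against LPS (median -0.57; 1 higher and 5 lower with CPM scaling), and 6 were higher and 2 lower in LPS against control (median 1.37). Spi1, which encodes PU.1, averaged 15507 normalized reads in LPS + NCT503, 55745 in LPS and 14476 in control cells, and was lower in LPS + NCT503 than in LPS (log2 -1.83 ± 0.21, adjusted p = 6.24e-05). Fos (-2.05 ± 0.19, adjusted p = 1.40e-05) and Irf8, a lineage factor of monocytes (-1.86 ± 0.20, adjusted p = 3.65e-05), were also lower. The factors Ets2, Egr1 (3.17 ± 0.16, adjusted p = 4.75e-08) and Cebpb (3.28 ± 0.26, adjusted p = 1.82e-06) were higher in LPS than in control. Csf1r itself was not called in either comparison.

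Of 13 factors of inducible Csf2 and Csf3 transcription, 1 was higher and 6 lower in LPS + NCT503 against LPS (median -0.20; 2 higher, 6 lower and a median of 0.05 with CPM scaling), and 11 were higher and 1 lower in LPS against control (median 3.07). Cebpd, a C/EBP factor, averaged 576 normalized reads in LPS + NCT503, 4163 in LPS and 318 in control cells (log2 -2.81 ± 0.27 for LPS + NCT503 against LPS, adjusted p = 2.13e-05). The AP-1 family members Batf (-1.26 ± 0.19, adjusted p = 0.000390) and Fosl2 (-0.91 ± 0.16, adjusted p = 0.00117) were lower too. The NF-κB genes Nfkb2 (4.03 ± 0.17, adjusted p = 1.38e-08) and Nfkb1 (2.92 ± 0.13, adjusted p = 2.20e-08), and Fosl2 (3.32 ± 0.16, adjusted p = 2.66e-08), were higher in LPS than in control.

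Of 11 decay and binding factors of AU-rich mRNAs, 4 were higher and 2 lower in LPS + NCT503 against LPS, beside 32.6% of all genes called. The median was -0.20, or 0.04 with CPM scaling. Only 3 were called in all without LPS + NCT503 library 1, LPS + NCT503 library 3 or LPS library 3. In LPS against control, 4 were higher and 4 lower (median -0.01), beside 41.8% of all genes called. With CPM scaling these became 2 higher and 6 lower, with a median of -0.71. Zfp36l2, a decay factor, was higher in LPS + NCT503 (11906 normalized reads, against 3628 in LPS; log2 1.72 ± 0.18, adjusted p = 3.43e-05). Its relative Zfp36, which destabilises GM-CSF mRNA, was lower (-1.25 ± 0.22, adjusted p = 0.00112), as was Zc3h12a, the RNase Regnase-1 (-0.73 ± 0.18, adjusted p = 0.00972). In LPS against control, Zc3h12a (4.48 ± 0.17, adjusted p = 4.76e-09) and Zfp36 (3.39 ± 0.17, adjusted p = 3.45e-08) were higher and Zfp36l1 was lower (-1.87 ± 0.14, adjusted p = 1.21e-06). Of 7 genes of the shedding of M-CSF and of CSF receptors, 0 were higher and 2 lower in LPS + NCT503 against LPS, beside 32.6% of all genes called. Their median was -0.01. CPM scaling gave 1 higher, 2 lower and a median of 0.24, and 4 were called without LPS library 1. The 2 called lower by limma were Rhbdf2, a partner of the sheddase ADAM17 (-1.21 ± 0.18, adjusted p = 0.000419), and Elane (-2.98 ± 0.52, adjusted p = 0.00112). Elane, the neutrophil elastase gene, is also 1 of the neutrophil markers above. In LPS against control, 4 were higher and 2 lower (median 0.77; 2 and 2 with CPM scaling), among them Rhbdf2 (3.50 ± 0.16, adjusted p = 2.61e-08), the protease Furin (2.30 ± 0.21, adjusted p = 5.11e-06) and Elane (-2.29 ± 0.44, adjusted p = 0.00229).

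**Figure D4:**
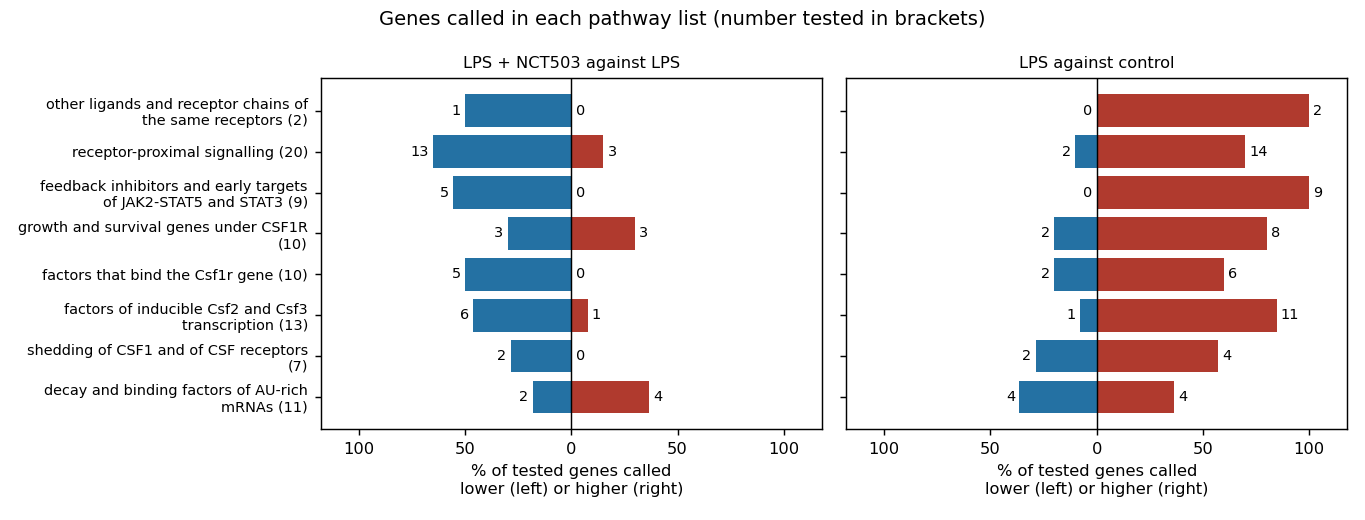
Share of the tested genes of each pathway list that was called lower (left, blue) or higher (right, red), in percent (x axis), in LPS + NCT503 against LPS and in LPS against control; numbers beside the bars are counts of genes. The receptor-proximal list had 13 of 20 genes lower with NCT503, and the feedback list 9 of 9 higher with LPS. Over all genes, 15.7% were lower with NCT503 and 20.5% higher with LPS.

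The genes whose levels followed each member most closely were sought among 8997 genes, by the Pearson r of log2(normalized reads + 1) over the 9 libraries; since these fall into 3 groups, r mainly reflects the order of the group means and is a description. Closest to Csf1 were Fosl1 (r = 0.994), Clmp (0.993) and Hbegf (0.992), and Fosl1, an AP-1 gene, averaged 692 normalized reads in LPS + NCT503, 305 in LPS and 43.3 in control cells. Closest to Csf3 were Snx18 (0.998), Fosl2 (0.997) and Sh3bp4 (0.997), and closest to Csf2 were Procr (0.997), Mxd1 (0.996) and Cldnd1 (0.995). The receptor Csf3r was followed by Serpina3g (0.995), Scimp (0.994) and Pttg1 (0.994), Csf2rb by Uba1 (0.992), Il4ra (0.989) and Plcb3 (0.989), and Csf2ra by Trp53rka (0.989) and Rhog (0.988). For Csf2rb2 they were Olfm1 (0.987), Tha1 (0.984) and S100a11 (0.983), and for Csf1r, whose group means hardly differed, Nle1 (0.959), Fbl (0.945) and Rps2-ps13 (0.942). Among the 8 genes, Csf2 and Csf3 were the most alike pair (r = 0.982), followed by Csf2rb and Csf3r (0.954).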

How the data were processed

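RNA-seq libraries of BMDMs were analysed, 3 per group, grouped by their labels. Reads were aligned with TopHat2 to mm10, per the submitters' processing notes; the sources used here do not name the counter, annotation, strand setting or the authors' test. Each deposited table holds a normalized signal per gene and library, which by its values is reads divided by 1 size factor per library and pair, the authors' log2 fold changes, p-values and adjusted p-values, and the gene length. Undoing that division gave whole reads in 100% of cases (tolerance 0.001 of a read), and the LPS libraries held the same reads in both tables, so all 9 were joined over 21434 genes and scaled by median-of-ratios size factors. Total reads per library over these genes were 20295862 to 23599685, and every member had at least 280 reads in every library except Csf2 and, in controls, Csf3. In LPS + NCT503, the chi-square of reads per degree of freedom was 8.58 between libraries 1 and 3. It was 105 and 87.0 between each of these and library 2, against 10.1 to 58.4 within the other groups. Library 2 had the highest Csf1, Csf1r and Csf2rb and the lowest Csf3 and Csf3r of its group.

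limma 3.58.1 (trend and robust) was run in R 4.3.3 on log2(normalized reads + 1) of genes whose group mean reached 1 normalized read in any group compared, with Benjamini-Hochberg adjustment and a threshold of 0.05. The deposited scale of each pair was used for LPS + NCT503 against LPS and LPS against control, and the joint scale for LPS + NCT503 against control. Alternatives were a pseudocount of 0.1, no filter, TMM and CPM scaling, edgeR 4.0.16 and DESeq2 1.42.0 on the recovered reads, 1 fit of all 9 libraries, the replicate number as a block, and leaving out each library. The fit was tested on simulated data. The members, lists and tests were chosen with earlier results of these data known. All members are named, and of each pathway list up to 3 called genes with the smallest limma p per comparison (all tested ones in the list of other ligands and chains), plus the 3 genes with the highest r to each member; some genes that this rule selects are not reported here. List counts under each setting were added after seeing the data. Levels per kb use the deposited gene length.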

Additional observations from a re-analysis of the deposited data

How the results depend on the processing

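Of the results of the 8 genes recomputed under the alternatives, 307 kept their direction and their side of the threshold, 12 kept their direction but lost a call, 4 kept it and gained one, and 13 turned in direction, all 13 of them in changes of Csf1r or under CPM scaling. Of these 13, CPM scaling made Csf1r called lower in 2 comparisons and ended the call of Csf2rb2 in LPS against control. With CPM scaling, 2092 genes were higher and 8536 lower in LPS against control, and 2452 higher and 6568 lower in LPS + NCT503 against control. In LPS against control, CPM scaling gave Csf1r -0.68, Csf2rb2 -0.042 and Il3ra -0.034 on the log2 scale, TMM scaling gave Csf1r -0.084 and edgeR gave it -0.031. In LPS + NCT503 against control, CPM scaling gave Csf1r -0.36, Csf2ra -0.14, Csf2rb -0.28 and Csf3r -0.18. By construction CPM scaling moves all genes of a comparison together, as the medians in the results show. Leaving out 1 library in turn, Csf1r ranged from -0.039 to 0.075 in LPS against control, from -0.046 to 0.14 in LPS + NCT503 against LPS and from -0.036 to 0.16 in LPS + NCT503 against control. The number of genes called higher in LPS + NCT503 against LPS ranged from 2213 (without LPS + NCT503 library 3) to 3748. On the recovered reads, edgeR called 6087 genes in LPS + NCT503 against LPS, 7769 in LPS against control and 7546 in LPS + NCT503 against control, and DESeq2 called 6225, 7813 and 7676 in the same comparisons. Over 13614 genes, deviations from the group mean correlated between same-numbered libraries at 0.190, 0.0976 and -0.0318 between LPS and control. The values were 0.369, 0.318 and -0.0952 between LPS + NCT503 and LPS, and 0.0451, -0.152 and -0.227 between LPS + NCT503 and control. Deviations of 3 libraries from their mean sum to 0, so these values do not settle whether the replicate numbers pair the libraries. With the replicate block, 9714 genes were called in LPS against control, 8186 in LPS + NCT503 against LPS and 8098 in LPS + NCT503 against control. The block gave an adjusted p of 0.0614 for Csf1 in LPS against control, 0.0265 for Csf2 in LPS + NCT503 against LPS and 0.0572 for Csf2rb2 in LPS + NCT503 against control. It gave 0.111 for Elane in LPS against control and 0.0317 for Il3ra in LPS + NCT503 against LPS; the cause was not tested. Depth limits Csf2 and, in control libraries, Csf3, where 4 and 2 reads stand behind the folds.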
